A study of Mus musculus with 42 samples.

Results

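Elastic fibre assembly was followed in the lungs of newborn mice through 10 genes: the elastin gene Eln, the fibrillins Fbn1 and Fbn2, the assembly proteins Fbln5, Emilin1, Mfap4 and Ltbp4, and the cross-linking enzymes Lox, Loxl1 and Loxl2. A gene was measured through the probe sets to which the array annotation gives that symbol and no other. This held for 8 of the 10 genes, with 15 probe sets, out of 18194 genes in all. Fbn1 had no such probe set, and Loxl2 shared both of its 2 probe sets with a second symbol, so neither is reported. For each gene the probe set with the highest mean over all arrays was used, and both probe sets of Eln are shown. The mice either lacked NRF2 (labelled Nrf -/-, KO) or were wild type (Nrf+/+, WT), 21 mice of each. KO and WT pups breathed 95% oxygen or more (O2) for 23 hours a day over 1, 2 or 3 days and were taken at P2, P3 and P4, or stayed in room air and were taken at P1, the day of birth, P2, P3 and P4. Each of these 14 groups had 3 mice, 1 mouse per array, from homogenised whole lung, and all litters were kept with foster dams. The labels name neither the strain nor how the KO allele was made.

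An elastic fibre has a core of cross-linked elastin on a scaffold of microfibrils, which are built mainly of fibrillins. Fibulin-5 and LTBP4 bring tropoelastin to the microfibrils, EMILIN1 and MFAP4 lie at the boundary of elastin and microfibril, and the lysyl oxidases LOX and LOXL1 oxidise lysines so that elastin can cross-link. In the newborn lung, myofibroblasts lay elastin down at the tips of growing septa, and mice exposed to high oxygen early in life are a common model of arrested alveolar growth. NRF2 is the transcription factor that switches on antioxidant enzymes through antioxidant response elements.

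The genotype labels were checked first. Nfe2l2, which encodes NRF2, read 4.68 ± 0.29 in KO and 10.86 ± 0.28 in WT (log2, SD, n = 21 each), and its target Nqo1 read 6.59 ± 0.34 in KO and 7.50 ± 0.48 in WT. Values are log2 RMA values as deposited. All 10 lung markers were measured. Their scores ran from -0.16 to 0.36 (median 0.12) among KO air mice, against -0.46 to 0.29 (median -0.17) among WT air mice. In the air comparison, 5 of the 10 were called higher for KO (calls are defined below), where 14.5% of all genes were. RNA of neighbouring organs was uneven: liver genes scored from -0.42 to 4.59 (median -0.23) in the 12 KO air arrays and from -0.48 to 7.89 (median 2.51) in the 12 WT air arrays. Each score is the mean log2 deviation of a list's genes from their means over all arrays. In whole lung, fewer cells of a type and less RNA per cell cannot be told apart.

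Upstream sequence is shown for Emilin1 and Ltbp4, since these are the genes called between the genotypes in both air and O2, in opposite directions. The RefSeq starts (GRCm38.p6) kept for this search were those of Fbn1, Emilin1, Ltbp4 and Fbln5, 7 starts in all. The search did not cover every member, so this count does not show which other members have listed starts. The 250 bases before the start lie at chr5:30913536-30913785 (plus strand) for Emilin1 and at chr7:27337613-27337862 (minus strand) for the first of 3 listed Ltbp4 starts. Both windows lie inside the annotated gene spans, chr5:30913387-30921279 for Emilin1 and chr7:27305140-27339720 for Ltbp4, so these listed starts are internal ones. Capitals mark the core of the antioxidant response element, TGACNNNGC, searched on both strands.
Emilin1: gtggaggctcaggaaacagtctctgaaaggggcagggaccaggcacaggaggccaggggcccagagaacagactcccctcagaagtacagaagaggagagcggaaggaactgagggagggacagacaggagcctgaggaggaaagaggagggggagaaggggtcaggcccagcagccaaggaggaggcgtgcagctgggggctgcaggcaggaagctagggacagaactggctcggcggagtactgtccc
Ltbp4: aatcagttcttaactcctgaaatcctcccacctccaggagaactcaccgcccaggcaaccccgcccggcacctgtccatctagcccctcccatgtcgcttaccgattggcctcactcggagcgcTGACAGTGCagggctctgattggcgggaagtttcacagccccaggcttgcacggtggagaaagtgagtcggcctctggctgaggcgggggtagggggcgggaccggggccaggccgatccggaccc
The element core occurred 1 time before this Ltbp4 start, and 0 times before the other 2 Ltbp4 starts and the Emilin1 start. Before the Fbn1 start and the Fbln5 starts it also occurred 0 times. It was present in 10.2% of 32851 listed promoter windows of the same length. A match of letters is a description and does not show binding.

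On GRCm38.p6 the genes lie apart, Eln at chr5:134702595-134747368, Emilin1 at chr5:30913387-30921279, Mfap4 at chr11:61485431-61488708, Ltbp4 at chr7:27305140-27339720, Fbln5 at chr12:101746565-101819119 and Loxl1 at chr9:58287723-58313212, with Fbn2 and Lox on chromosome 18. The plot of the 8 genes by group shows how far single mice of a group lay apart. The group means of Emilin1 spanned 1.33 log2 units, between 10.66 ± 0.20 in WT air at P3 and 9.33 ± 0.16 in KO O2 at P4 (SD, n = 3). The other 7 genes spanned 0.53 (Loxl1) to 0.84 (Mfap4). With the 14 groups placed in order of their mean, neighbours overlapped in all 13 pairs for Eln, Fbn2, Fbln5, Lox and Ltbp4, in 12 for Loxl1, in 11 for Mfap4 and in 10 for Emilin1.

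**Figure D1:**
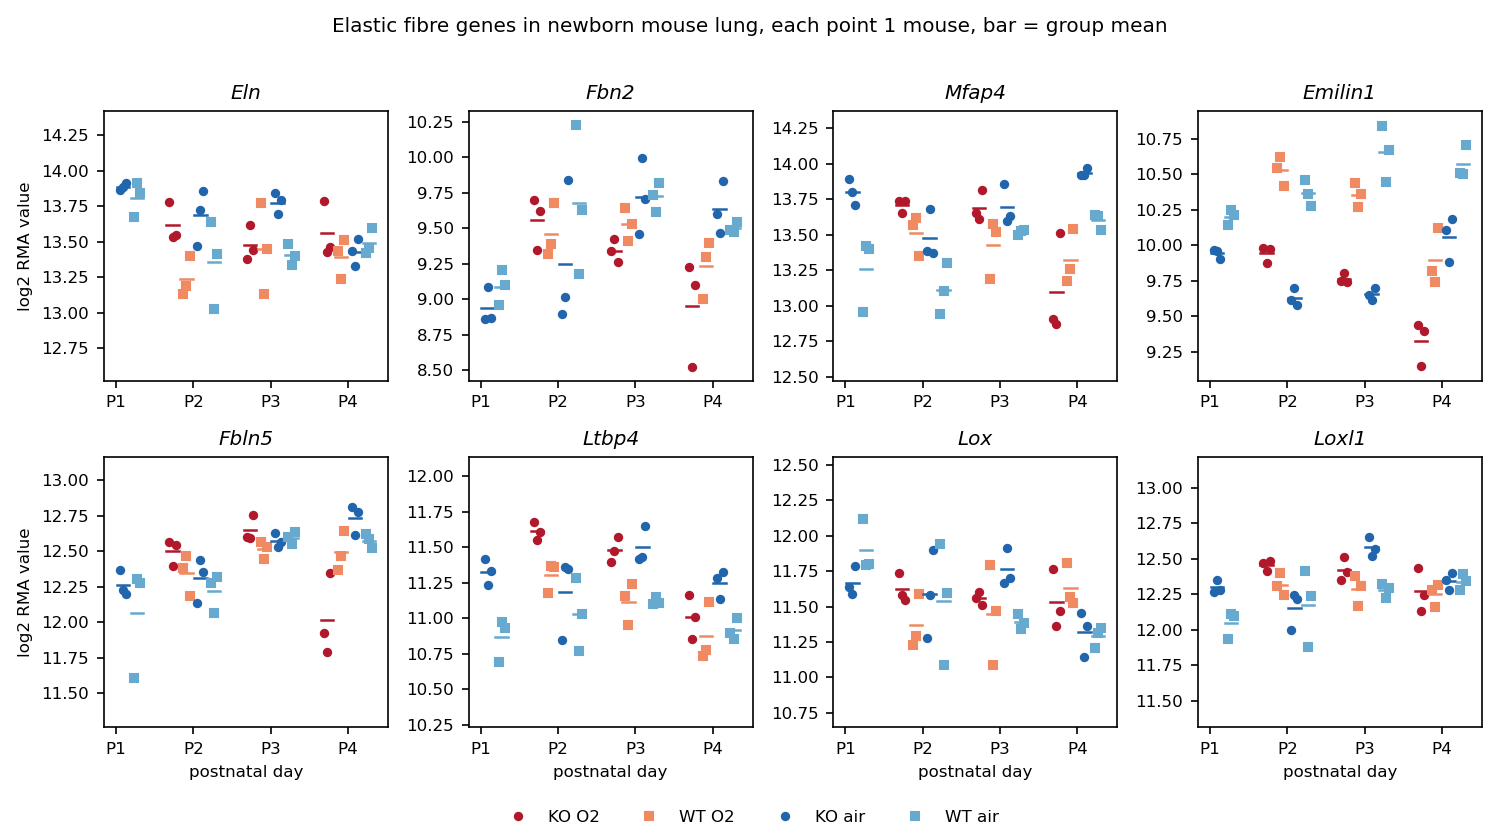
Log2 RMA value (vertical axis, the same span in every panel) of 8 elastic fibre genes by postnatal day, with each point 1 mouse and each bar a group mean of 3. KO circles lie below WT squares for Emilin1 in every exposure and age, while KO circles lie above WT squares for Mfap4 in 6 of 7. The share of all genes separated as often was not computed.

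The comparison of KO with WT pups in air asks what loss of NRF2 does to these genes during the first days of life. Averaged over P1 to P4 (12 KO and 12 WT mice), Emilin1 was lower in KO, and Mfap4, Ltbp4, Eln and Loxl1 were higher. Thus 4 of 8 genes were called higher, where 14.5% of all genes were, and 1 was called lower, where 14.4% were. A call means an adjusted p under 0.05 in limma after Benjamini-Hochberg adjustment over all genes. The median difference was 0.12 log2 units over the 8 genes and 0.015 over all genes. Fbn2, Fbln5 and Lox missed the threshold, with differences of -0.11, 0.11 and 0.053. The second Fbn2 probe set lay further apart, at 8.71 ± 0.49 in KO air and 9.10 ± 0.42 in WT air (SD, n = 12 each).

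Emilin1 encodes a glycoprotein at the elastin surface that also holds back the processing of TGF-beta. At P1 it read 9.97, 9.96 and 9.90 in KO mice and 10.15, 10.25 and 10.21 in WT mice. At P3 it read 9.65, 9.62 and 9.70 in KO mice and 10.84, 10.45 and 10.67 in WT mice. At each of the 4 ages all 3 KO mice lay below all 3 WT mice. The share of all genes separated in this way was not computed, here or for the other members. The difference averaged -0.63 ± 0.047 log2 units (SE, adjusted p = 1.38e-11 by limma), a 1.55-fold lower signal in KO. It was widest at P3, 2.00-fold lower in KO (adjusted p = 6.57e-09), and was -0.74 at P2, -0.52 at P4 and -0.26 at P1 (adjusted p = 4.76e-06, 0.00277 and 0.0877). Emilin1 was the member called at P2, where 13.1% of all genes were called in either direction, and at P4, where 0.726% were. The P4 call was lost with the mean of both probe sets (-0.35, adjusted p = 0.0501) and, like that at P2, in a fit to the arrays of the contrast alone (0.0546 and 0.146). The second Emilin1 probe set gave a smaller difference, -0.21 (adjusted p = 0.0018), and its KO mice lay below the WT mice in 5 of the 7 conditions. At P1 in air its mean was not lower in KO, at 9.02 against 8.98 in WT.

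The course of Emilin1 with age also differed between the genotypes. In WT it rose by P3, by 0.45 log2 units over P1 (adjusted p = 0.000549 by limma), in a comparison that called 20.6% of all genes. In KO it was -0.31 at P2 and -0.29 at P3 relative to P1 (adjusted p = 0.0251 and 0.0391), in comparisons that called 13.3% and 12.8%. The KO call at P3 was lost without any 1 of its 6 arrays (adjusted p 0.0597 to 0.123) and with other tissue scores as covariates (0.138), and the one at P2 without KO air P1 replicate 1 or 2 or KO air P2 replicate 1 or 3 (0.0714 to 0.101). The P2 call was also lost with those covariates (0.556) and in a fit to the arrays of the contrast alone (0.252). The genotype difference in the change from P1 was tested after these values were seen. It was -0.48 ± 0.13 at P2 (adjusted p = 0.0463) and -0.74 ± 0.13 at P3 (adjusted p = 0.00027), and Emilin1 was the member called in each, where 2.65% and 12.6% of all genes were called. At P4 it was -0.26 (adjusted p = 0.499); there 0.0275% of all genes and 0 of the 8 members were called, with 0 members also at an unadjusted p under 0.05. The P2 difference lost its call without any of 10 of its 12 arrays, the exceptions being KO air P2 replicate 2 and WT air P2 replicate 3 (adjusted p 0.0533 to 0.119), and with other tissue scores as covariates (0.194), whereas the P3 difference was called in all 22 alternatives, at -0.84 to -0.61.

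Mfap4 encodes a microfibril-associated protein that binds elastin and collagen. Its 12 KO air values ran from 13.37 through a median of 13.76 to 13.97, against 12.94, 13.46 and 13.64 in WT air. KO was higher by 0.35 ± 0.068 log2 units (1.28-fold, adjusted p = 0.000209 by limma), and the 3 KO mice lay above the 3 WT mice at all 4 ages in air. Ltbp4, which binds fibulin-5 and latent TGF-beta, ran from 10.84 through 11.34 to 11.65 in KO air, against 10.69, 10.99 and 11.28 in WT air. It was higher in KO by 0.33 ± 0.062 (1.26-fold, adjusted p = 0.000146). Both calls, like that of Emilin1, held in all 36 alternatives. At P1 both genes were called, at 0.54 (adjusted p = 0.0129) and 0.46 (adjusted p = 0.0194), in a comparison that called 6.78% of all genes. Without WT air P1 replicate 1 their adjusted p was 0.1 and 0.0998, and without KO air P1 replicate 1 it was 0.0631 and 0.0861. Both P1 calls were also lost in a fit to the arrays of the contrast alone (0.0825 and 0.0658). With other tissue scores as covariates that of Mfap4 was lost (0.0677).

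Eln gave a smaller difference that depended on the probe set. The brighter one ran from 13.33 through 13.76 to 13.91 in KO air, against 13.02, 13.47 and 13.91 in WT air, and the ranges overlapped. The difference was 0.18 ± 0.067 (adjusted p = 0.0448 by limma). That call was kept when 1 of these 8 air arrays was left out, and was lost for each of the other 16 (adjusted p 0.0528 to 0.103): KO P2 replicate 1, KO P3 replicate 2, KO P4 replicate 2, WT P1 replicate 2, WT P2 replicates 1 and 3, WT P3 replicate 1 and WT P4 replicate 3. The dimmer Eln probe set was higher in KO by 0.68 in air (adjusted p = 1.9e-05) and by 0.59 in O2 (adjusted p = 0.0011). It separated the genotypes fully in 6 of 7 conditions, and how many of all probe sets did so was not counted.

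The 2 Eln probe sets therefore lay closer together in KO lungs. Their gap was 1.45 ± 0.16 log2 units in KO (range 1.03 to 1.72) and 1.91 ± 0.14 in WT (1.68 to 2.16; SD, n = 21 each). In all 7 conditions every KO mouse had a narrower gap than every WT mouse, and 20 of 21 KO mice lay below the lowest WT mouse of any condition. How many probe-set pairs of other genes separate the genotypes as often was not computed. The difference of -0.46 is a description, since the gap was looked at after the values were seen. Both probe sets carry the same sequence accession in the annotation, so which of them follows Eln transcript more closely cannot be told apart here.

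**Figure D2:**
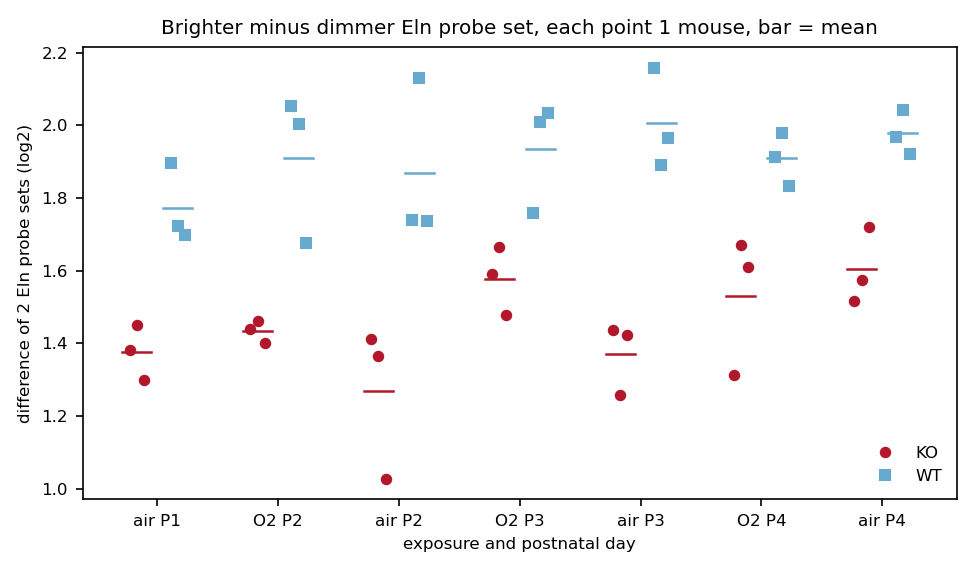
Brighter minus dimmer Eln probe set (log2, vertical axis) in each mouse, with KO circles left of WT squares for each exposure and postnatal day, and bars for means of 3 mice. The KO gaps, 1.03 to 1.72, lie under the WT gaps of the same condition in all 7. The share of probe-set pairs of other genes separated as often was not computed.

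Among the cross-linking enzymes, Loxl1 ran from 12.00 through 12.32 to 12.65 in KO air, against 11.87, 12.26 and 12.41 in WT air. It was higher in KO by 0.13 ± 0.046 (adjusted p = 0.0289 by limma), with its largest difference at P3 (0.30, adjusted p = 0.018). The mean call was lost without KO air P2 replicate 3, KO air P3 replicate 1, WT air P1 replicate 1, WT air P2 replicate 2 or WT air P3 replicate 2 (adjusted p 0.0502 to 0.0662), with the mean of its probe sets (0.0636), in a fit to the arrays of the contrast alone (0.061) and over P2 to P4 only, an average chosen after seeing the data (0.095, adjusted p = 0.198). Also at P3, where 21.6% of all genes were called, Eln (0.37, adjusted p = 0.046) and Ltbp4 (0.38, adjusted p = 0.0253) were called beside Emilin1. Of these P3 calls, Eln's was lost without any 1 of the 6 arrays (0.0569 to 0.14), Ltbp4's without any WT array or KO replicate 3 (0.0513 to 0.137), and Loxl1's without KO replicate 1 (0.0751) or WT replicate 2 (0.0723). With other tissue scores as covariates all 3 were lost (0.0952 for Eln, 0.198 for Ltbp4 and 0.152 for Loxl1). Lox differed by 0.053, with a 95% interval of -0.12 to 0.22. By age, P1 to P4, it differed by -0.23, 0.043, 0.37 and 0.031 (adjusted p = 0.418, 0.898, 0.11 and 0.973 by limma). The P3 difference was called with array weights (0.0133), the mean of its probe sets (0.0203) and the arrays of the contrast alone (0.0253). The genotype difference in the Lox change from P1 to P3 was 0.60 (adjusted p = 0.0884). In those same alternatives it was called (0.0127, 0.00727 and 0.0204).

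Markers of other organs differed between the KO and WT air arrays. In KO air 8 of 9 liver genes and 6 of 12 heart muscle genes were lower, where 14.4% of all genes were called lower. Of the thymocyte genes 10 of 10 were higher, where 14.5% of all genes were called higher. The thymocyte scores of KO air mice were uneven by age, at 3.72, 1.03 and 2.78 at P2. They were -0.15, -0.02 and -0.25 at P1, 0.18, 0.07 and -0.04 at P3, and 0.31, 0.82 and 0.78 at P4. The 12 WT air scores ran from -0.33 to 0.57. With the liver, heart muscle, skeletal muscle and thymocyte scores of each array as covariates, the air difference was -0.61 for Emilin1 (adjusted p = 2.92e-06), 0.28 for Mfap4 (0.0405), 0.44 for Ltbp4 (0.00143), 0.37 for Eln (0.00488) and 0.19 for Loxl1 (0.0515). In that fit Lox was also called, at 0.29 (adjusted p = 0.0152).

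**Figure D3:**
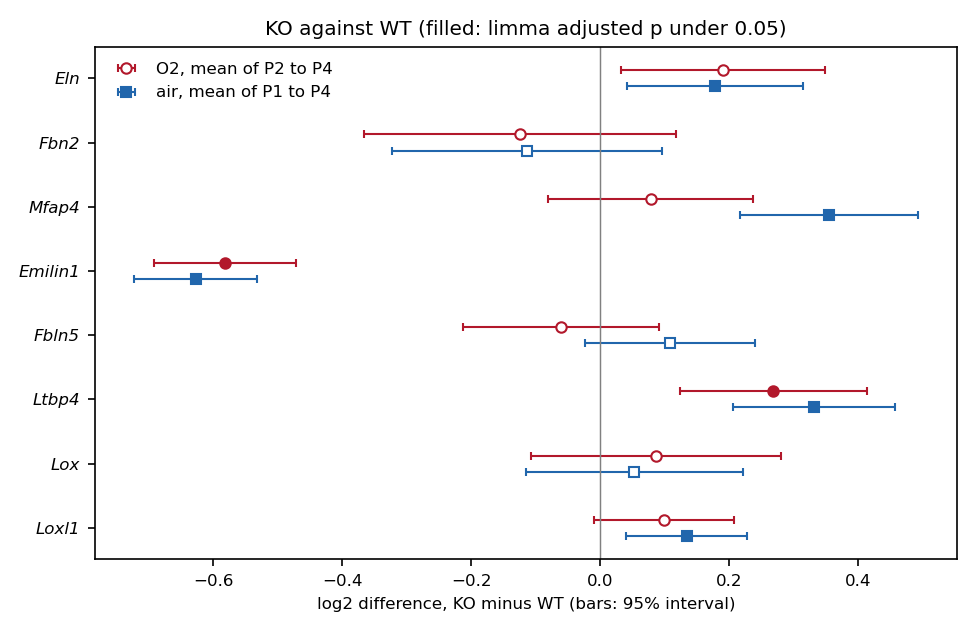
Log2 difference of KO minus WT (horizontal axis) for 8 genes, in O2 (circles) and in air (squares), with 95% intervals from limma and filled symbols at an adjusted p under 0.05. Emilin1 alone lies to the left with filled symbols, at -0.58 in O2 and -0.63 in air, and Ltbp4 lies to the right in both.

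In O2, averaged over P2 to P4 (9 KO and 9 WT mice), Emilin1 was again lower in KO and Ltbp4 higher. That made 1 of 8 genes called higher, where 6.3% of all genes were, and 1 called lower, where 6.18% were. Cyclic loess scaling lowered the share of higher genes among all calls to 36.7%, from 50.5% in the deposited scaling, without changing the member calls. Emilin1 read 9.98, 9.88 and 9.98 in KO after 1 day and 10.54, 10.62 and 10.42 in WT. After 3 days it read 9.44, 9.15 and 9.40 in KO and 9.82, 9.74 and 10.12 in WT. The KO values lay below the WT values at all 3 ages, and the mean difference was -0.58 ± 0.054 (adjusted p = 1.85e-09 by limma). The difference was -0.59, -0.59 and -0.57 at P2, P3 and P4, comparisons that called 2.96%, 5.13% and 9.82% of all genes. Leaving out the arrays high in other tissues gave -0.54 on average (adjusted p = 9.13e-06). At P4 it gave -0.42 (adjusted p = 0.0612) with 1 WT O2 mouse left, assumed to vary like the other groups.

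Ltbp4 ran from 10.86 through 11.48 to 11.68 in KO O2, against 10.73, 11.16 and 11.37 in WT O2. It was higher in KO by 0.27 ± 0.071 (adjusted p = 0.0104 by limma), and was called in all 30 alternatives. At single ages Ltbp4 was not called, at 0.31, 0.36 and 0.13 for P2, P3 and P4 (adjusted p = 0.205, 0.0801 and 0.516). Averaged over P2 to P4, Mfap4 was at 0.078 (adjusted p = 0.574). By age it was 0.20, 0.26 and -0.23 for P2, P3 and P4 (adjusted p = 0.577, 0.293 and 0.298 by limma). The P4 difference of Mfap4 was called without KO O2 P4 replicate 3 (-0.43, 0.0302). The brighter Eln probe set averaged 0.19 (adjusted p = 0.108). Eln was called with the mean of its probe sets (0.39, 0.00744), without WT O2 P3 replicate 1 (0.24, 0.0287), with array weights (0.22, 0.00975), with other tissue scores as covariates (0.23, 0.0296) and when arrays high in those scores were left out (0.32, 0.00714). At P4 Fbln5 was lower in KO O2, at 11.92, 11.79 and 12.35, against 12.37, 12.47 and 12.65 in WT O2 (-0.47, adjusted p = 0.0173). The groups did not overlap, but the call was lost without KO O2 P4 replicate 1 or 2 or WT O2 P4 replicate 3 (adjusted p 0.0752, 0.13 and 0.0967). The Fbln5 call was also lost with the mean of its probe sets (0.0975), in a fit to the arrays of the contrast alone (0.131) and with a sex score as covariate (0.0506).

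The next comparison, 3 days of O2 against air at P4, asks what a short hyperoxic exposure does in each genotype. In KO lungs the microfibril and assembly genes Mfap4, Emilin1, Fbln5 and Fbn2 were lower: 0 of 8 genes were called higher, where 17% of all genes were, and 4 lower, where 14.7% were. In WT lungs 0 were called higher, where 15% of all genes were, and Emilin1 alone was called lower, where 12.5% were. The median difference over the 8 genes was -0.46 in KO and -0.09 in WT, against 0.043 and -0.03 over all genes. Eln, Lox and Loxl1 were called in neither genotype. Lox read 11.77, 11.36 and 11.47 after O2 in KO, overlapping 11.46, 11.15 and 11.36 in air (0.21, adjusted p = 0.364 by limma). In WT it read 11.81, 11.57 and 11.53 after O2, wholly above 11.21, 11.31 and 11.35 in air (0.34, adjusted p = 0.129). The WT difference was called with other tissue scores as covariates (0.60, adjusted p = 0.000236), with array weights (0.0298) and in a fit to the arrays of the contrast alone (0.0287). Eln differed by 0.13 in KO (95% interval -0.14 to 0.41) and by -0.094 in WT (-0.37 to 0.18).

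Emilin1 fell in both genotypes. In KO it read 9.44, 9.15 and 9.40 after O2 and 10.11, 9.88 and 10.19 in air, a difference of -0.73 ± 0.094 (adjusted p = 2.92e-07 by limma). In WT it read 9.82, 9.74 and 10.12 after O2 and 10.51, 10.51 and 10.71 in air, a difference of -0.68 ± 0.094 (adjusted p = 1.17e-06). The groups did not overlap in either genotype, the second probe set gave -0.45 and -0.43 (adjusted p = 0.000552 and 0.00115), and both calls held in all 17 alternatives.

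Mfap4 in KO read 12.91, 12.87 and 13.51 after O2 and 13.92, 13.92 and 13.97 in air, a difference of -0.84 ± 0.14 (1.79-fold, adjusted p = 1.14e-05 by limma). In WT it read 13.17, 13.26 and 13.54 after O2 and 13.64, 13.63 and 13.54 in air (-0.28, adjusted p = 0.13), and was called with other tissue scores as covariates (-0.40, 0.0224) and with array weights (0.0362). Fbln5, which tethers elastin to cells and microfibrils, read 11.92, 11.79 and 12.35 in KO after O2 and 12.81, 12.61 and 12.78 in air, a difference of -0.72 ± 0.13 (1.64-fold, adjusted p = 5.71e-05). In WT it read 12.37, 12.47 and 12.65 after O2 and 12.62, 12.58 and 12.52 in air (-0.081, adjusted p = 0.711). The KO groups did not overlap for either gene while the WT groups did for Fbln5 and touched for Mfap4, and both KO calls held in all 17 alternatives. Fbn2, a fibrillin of developing tissue, read 9.23, 8.52 and 9.10 in KO after O2 and 9.60, 9.46 and 9.83 in air (-0.68 ± 0.21, adjusted p = 0.0104). That call was lost without KO O2 P4 replicate 2 (-0.47, adjusted p = 0.118), without KO air P4 replicate 3 (-0.58, 0.0586) and with a sex score as covariate (-0.55, 0.0636).

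Whether O2 acted differently in KO and WT was tested directly. After 3 days 0 of 8 genes were called, where 0.561% of all genes were, and 2 had an unadjusted p under 0.05: Fbln5 (-0.64 ± 0.18, adjusted p = 0.0896 by limma) and Mfap4 (-0.56 ± 0.19, adjusted p = 0.153). Both were called without KO O2 P4 replicate 3 (-0.80 and -0.77, adjusted p = 0.0147 and 0.0175), the KO mouse with the highest values after O2, and with array weights (adjusted p = 0.00826 and 0.0332). The difference for Emilin1 was -0.052, with a 95% interval of -0.32 to 0.22. After 1 and 2 days 0 genes were called as well, where 2.69% and 1.76% of all genes were, with 0 and 1 genes at an unadjusted p under 0.05.

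**Figure D4:**
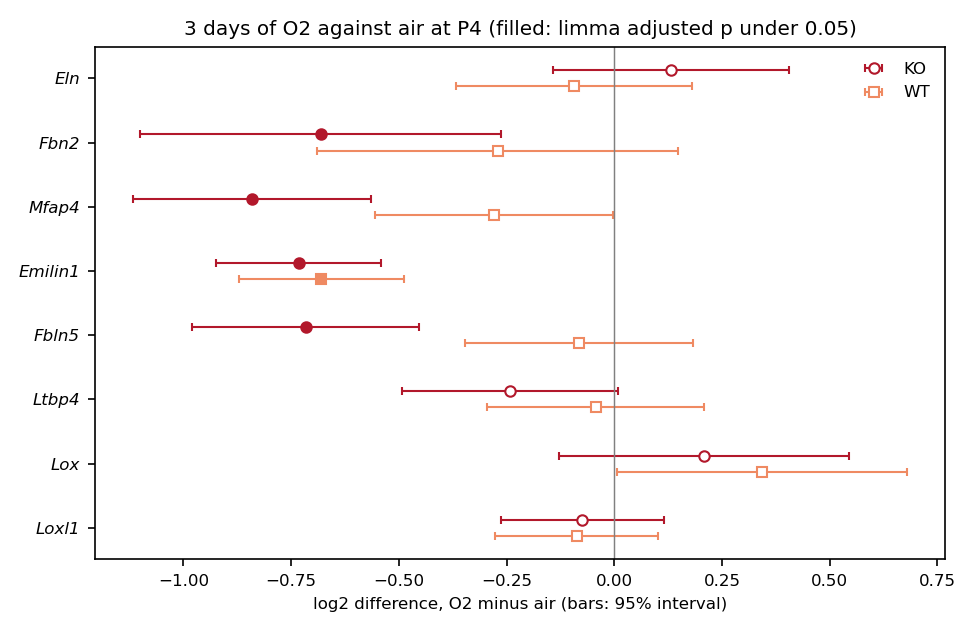
Log2 difference of 3 days of O2 minus air at P4 (horizontal axis) for 8 genes in KO (circles) and WT (squares), with 95% intervals from limma and filled symbols at an adjusted p under 0.05. Emilin1 is filled in both genotypes at -0.73 and -0.68, and Fbn2, Mfap4 and Fbln5 are filled in KO.

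Shorter exposures gave less. In WT 0 of 8 genes were called after 1 or 2 days, where 4.33% and 5.4% of all genes were. Emilin1 was at -0.30 after 2 days in WT (adjusted p = 0.0581), and was called without WT air P3 replicate 2 (-0.40, 0.0203), with array weights (-0.22, 0.0273), among the upper 60% of genes by level (0.0386) and with the replicate block (0.0479). It was also called when arrays with high scores for other tissues were left out (-0.53, 0.0379), which leaves 1 WT air P3 mouse. In KO 0 were called after 2 days, where 12.6% were. After 1 day in KO 3 were called, all higher, where 9.06% of all genes were called: Loxl1 by 0.30, Emilin1 by 0.31 and Ltbp4 by 0.43 (adjusted p = 0.0343, 0.0325 and 0.0243 by limma). Of the KO air P2 mice, replicate 1 had a high thymocyte score and replicate 3 high liver, skeletal muscle and thymocyte scores. With the scores of other tissues as covariates the 3 differences were 0.13, 0.27 and 0.13 (adjusted p = 0.894, 0.711 and 0.936). The calls of Loxl1 and Emilin1 were lost without any KO O2 P2 array or KO air P2 replicate 1 or 3 (0.0507 to 0.216), and that of Ltbp4 without KO O2 P2 replicate 1 or 3 or KO air P2 replicate 1 (0.0602 to 0.253).

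Age was compared in air, P4 against P1 (the P4 air mice also being the controls of the 3-day O2 comparison), the saccular days before alveoli form. In KO 2 of 8 genes were called higher, Fbn2 and Fbln5, where 8.09% of all genes were, and 1 lower, Eln, where 13.5% were. In WT 3 were called higher, Fbln5, Emilin1 and Loxl1, where 11.2% were, and 1 lower, Lox, where 11.3% were. At P3, KO had 2 genes above P1, Fbn2 (0.78) and Loxl1 (0.28), beside the lower Emilin1. That comparison called 12.8% of all genes in either direction. WT then had Fbn2 (0.64), Fbln5 (0.53) and Emilin1 above P1, and Eln (-0.40) and Lox (-0.51) below it, where 20.6% were called. Of these P3 calls, that of WT Emilin1 alone held in all alternatives.

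Eln in KO read 13.43, 13.33 and 13.52 at P4 and 13.86, 13.88 and 13.91 at P1, a difference of -0.46 ± 0.13 (adjusted p = 0.0127 by limma, but 0.058 without KO air P4 replicate 2). In WT it read 13.42, 13.45 and 13.59 at P4 and 13.67, 13.91 and 13.84 at P1 (-0.32, adjusted p = 0.0907). The WT change was called with array weights (-0.38, 0.0022) and in a fit to the arrays of the contrast alone (0.0417). The P4 values lay below the P1 values in both genotypes without overlap, and the dimmer probe set gave -0.69 in KO and -0.52 in WT (adjusted p = 0.023 and 0.0902). Fbn2 in KO read 9.60, 9.46 and 9.83 at P4 and 8.86, 9.08 and 8.87 at P1, a rise of 0.70 ± 0.21 (adjusted p = 0.0136, but 0.0684 without KO air P4 replicate 3), and its second probe set rose by 0.79 (adjusted p = 0.0266). In WT the Fbn2 change was 0.41 (adjusted p = 0.165). It was called with array weights (0.0391), in a fit to the arrays of the contrast alone (0.0117) and with other tissue scores as covariates (0.54, 0.0173).

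Fbln5 rose with age in both genotypes. In KO it read 12.81, 12.61 and 12.78 at P4 and 12.37, 12.23 and 12.20 at P1 (0.47 ± 0.13, adjusted p = 0.00808 by limma). In WT it read 12.62, 12.58 and 12.52 at P4 and 11.61, 12.30 and 12.28 at P1 (0.51 ± 0.13, adjusted p = 0.00355). The WT rise leans on the first P1 mouse and was 0.29 (adjusted p = 0.0795) without WT air P1 replicate 1. Averaging Fbln5 with its dim second probe set gave 0.14 in KO and 0.13 in WT (adjusted p = 0.448 and 0.551).

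The 2 lysyl oxidases moved apart in WT. Lox, the main cross-linking enzyme of collagen and elastin, read 11.21, 11.31 and 11.35 at P4 and 12.12, 11.79 and 11.80 at P1, a difference of -0.61 ± 0.17 (1.53-fold, adjusted p = 0.00632 by limma) that was called in all 16 alternatives and by the next brightest Lox probe set (-0.89). In KO the Lox change was -0.35 (adjusted p = 0.139), with values of 11.46, 11.15 and 11.36 at P4, wholly below 11.63, 11.59 and 11.78 at P1. The KO change was called in a fit to the arrays of the contrast alone (0.04) and without arrays high in other tissues (0.0281). Loxl1, which acts on elastin, read 12.28, 12.39 and 12.34 at P4 and 11.94, 12.11 and 12.09 at P1 in WT, a rise of 0.29 ± 0.093 (adjusted p = 0.0197). It lost its call without WT air P1 replicate 1 (0.107), WT air P4 replicate 2 (0.0773) or WT air P4 replicate 3 (0.0525). The KO change minus the WT change was 0.26 for Lox and -0.25 for Loxl1, and neither was called (adjusted p = 0.731 and 0.51). Emilin1 rose by 0.37 in WT (adjusted p = 0.00341, called in all 16 alternatives) and was at 0.12 in KO (adjusted p = 0.424).

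Other genes of elastic fibre biology were counted in lists, with the shares of all genes called in the same comparisons. Among markers of alveolar myofibroblasts and smooth muscle, 5 of 14 rose between P1 and P4 in KO and 5 of 14 in WT, and 0 fell. Of all genes, 8.09% rose and 13.5% fell in KO, and 11.2% and 11.3% in WT. Acta2, smooth muscle actin, rose by 0.61 in KO and 0.74 in WT, and Myh11, smooth muscle myosin, by 1.11 and 1.17. After 3 days of O2, 6 of the 14 were lower in KO and 6 in WT, with 0 and 1 higher. Of all genes, 14.7% were lower and 17% higher in KO, and 12.5% and 15% in WT. Pdgfra, the PDGF receptor of myofibroblast precursors, differed by -0.62 in KO and by -0.996 in WT (adjusted p = 0.0089 and 7.66e-05 by limma). The list's median was -0.36 in KO and -0.49 in WT, beside the fall of the 4 members in KO and of Emilin1 in WT, and its part in those values was not tested.

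Elastases and their inhibitors moved chiefly with O2: 6 of 15 were higher and 1 lower in KO, and 7 higher and 1 lower in WT. Of all genes, 17% were higher and 14.7% lower in KO, and 15% and 12.5% in WT. Timp1, an inhibitor of metalloproteinases, rose by 3.98 in KO and 2.96 in WT, and Slpi, which inhibits neutrophil elastase, by 2.14 and 1.48. Mmp12, macrophage elastase, rose by 1.26 in KO and 2.23 in WT (adjusted p = 1.22e-05 and 4.94e-10 by limma). The air comparison of KO with WT called 1 of the 15, Ctss, an elastin-cleaving cathepsin, at -0.32 (adjusted p = 0.00122). That comparison called 14.4% of all genes lower.

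Of 10 other fibulins and microfibril proteins, 2 were higher and 3 lower after O2 in KO, and 1 higher and 3 lower in WT. Of all genes, 17% were higher and 14.7% lower in KO, and 15% and 12.5% in WT, so counts this small lie near the background. Mfap2, a fibrillin-binding microfibril protein, differed by -1.36 in KO and -0.91 in WT, while Mmrn2, an endothelial relative of Emilin1, was higher by 1.17 and 1.26. Mmrn2 was also lower in KO air than in WT air, at -0.55 (adjusted p = 2.49e-07 by limma), as was Efemp1 (-0.29), and Npnt, a ligand of integrin alpha 8, was higher (0.38). Among 7 other LTBPs and linked ADAMTS proteins, Ltbp3 was lower after O2, at -0.79 in KO and -0.37 in WT. The TGF-beta list had 4 of 10 genes higher in KO air and 0 lower, where 14.5% and 14.4% of all genes were. Among the higher ones were Tgfb1 by 0.36 (adjusted p = 2.51e-06) and Tgfbi, a matrix protein that TGF-beta induces, by 0.24. Of 8 other lysyl oxidases and their partners, 3 were lower and 1 higher in KO air, among them the procollagen proteinase enhancer Pcolce (-0.40, adjusted p = 7.41e-07) and the proteinase Bmp1 (0.19).

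Of 13 mesenchyme and matrix fibroblast markers, 3 rose and 1 fell between P1 and P4 in KO, and 5 rose and 1 fell in WT. Of all genes, 8.09% rose and 13.5% fell in KO, and 11.2% and 11.3% in WT. Col3a1, a fibrillar collagen, rose by 0.32 in KO and 0.54 in WT. After O2 3 were lower and 1 higher in KO, and 4 lower and 2 higher in WT. Of all genes, 14.7% were lower and 17% higher in KO, and 12.5% and 15% in WT. Tcf21, a fibroblast transcription factor, was at -0.65 in KO and -0.86 in WT. Of 8 mesothelial and large vessel markers, 5 were lower and 1 higher after O2 in KO, and 2 lower and 1 higher in WT. Itga8, the integrin alpha chain of myofibroblasts and vascular muscle, differed by -1.02 in KO and by -0.45 in WT.

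Likeness of pattern was described by Pearson's correlation over the 14 group means, which share the same arrays. Eln was most like 2810029C07Rik (0.91), Prl8a6 (0.90), Tbc1d10a (0.90), Gpr20 (0.89) and Washc1 (0.89). Among the members Eln tracked Lox (0.73) and ran against Emilin1 (-0.48) and Fbn2 (-0.47). Loxl1 and Ltbp4 (0.75), Fbln5 and Mfap4 (0.71) and Mfap4 and Ltbp4 (0.67) were the closest other pairs. The mean of the 8 members was most like Nenf (0.94), Maged1 (0.94) and Tns3 (0.93).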

How the data were processed

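Total RNA of 42 single newborn mouse lungs was hybridised to Affymetrix 3' arrays, per the labels' protocols. The deposited table holds log2 values for 45101 probe sets, made by the authors with GCOS and RMA per the submitters' processing notes, which state no version. RMA subtracts background, gives all arrays one distribution and summarises probes. No further scaling was applied. One single-symbol probe set per gene, the brightest, gave 18194 genes. A model of 14 group means was fitted to all 42 arrays by limma 3.58.1 and R 4.3.3 (31.4 degrees of freedom after moderation), two-sided, with Benjamini-Hochberg adjustment over all genes and calls under 0.05. The number of arrays limits the precision. The genes named in the report are the 8 measured members and, per list and comparison, up to 3 called genes of smallest p. Members and lists were chosen with earlier results of these data known. Replicate numbers did not pair mice: same-number arrays correlated beyond 0.1 throughout in 3 of 91 group pairs. Alternatives covered scaling, weights, probe sets, covariates, the replicate block and each array left out.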

Additional observations from a re-analysis of the deposited data

Results flagged for a closer look

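Emilin1 is listed because its change with age in air differed between KO and WT by a direct test. The KO change minus the WT change was -0.48 ± 0.13 log2 units from P1 to P2 (SE, adjusted p = 0.0463 by limma) and -0.74 ± 0.13 from P1 to P3 (adjusted p = 0.00027). The P2 difference was called in 8 of 22 alternatives. It was lost with array weights (0.0515), the mean of both probe sets (0.0875), the arrays of the contrast alone (0.304), other tissue scores as covariates (0.194) and 10 of 12 left-out arrays. The P3 difference was called in all 22. Both contrasts were added after the Emilin1 values were seen. The change to P4 differed by -0.26 (adjusted p = 0.499).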

How the results depend on the processing

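The number of the 8 genes called kept within 1.5 times the main count under most alternatives. For P4 against P1 in WT it was 4, against 7 with array weights, 2 with the mean of all probe sets and 2 to 5 without 1 replicate (2 without WT air P1 replicate 1). For KO against WT in air it was 5, against 3 to 5 without 1 replicate; it was 3 without KO air P2 replicate 3, KO air P3 replicate 1, WT air P1 replicate 1, WT air P2 replicate 2 or WT air P3 replicate 2. For 3 days of O2 in WT it was 1, against 3 with array weights, 2 with only the arrays of the contrast and 3 with other tissue scores as covariates. For the genotype difference in the 3-day O2 effect it was 0, against 2 with array weights and 2 without KO O2 P4 replicate 3. With the replicate block the 7 counts were unchanged, for instance 5 for KO against WT in air and 4 for 3 days of O2 in KO. No called value changed sign. Leaving out arrays high in other tissues removed 17 (4 KO, 13 WT) and emptied WT air P1 and WT air P2, so comparisons that need those groups could not be fitted. It left 1 mouse each in KO air P2, KO air P3, WT air P3 and WT O2 P4, assumed to vary like the other groups. With 3 mice a group, small differences may be missed.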
